A study of Homo sapiens with 8 samples.

Results

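The insulin-like growth factor binding proteins (IGFBPs) were followed here as 6 mRNAs, IGFBP2, IGFBP3, IGFBP4, IGFBP5, IGFBP6 and IGFBP7. They were chosen by gene name from the 59385 genes of the count table, with earlier results of these data known. All 6 were among the 16228 genes that passed the filter on low counts. The cells were IHCF, an immortalized line of human cardiac fibroblasts. They had been infected with a lentivirus that carries either a short hairpin RNA (shRNA) against eIF4G2 (gene EIF4G2) or a scramble shRNA with no target. Total RNA and polysome-associated RNA were sequenced from each, which gave 4 groups of 2 libraries: EIF4G2 shRNA polysomal, scramble polysomal, EIF4G2 shRNA total and scramble total. eIF4G2 is a relative of the translation factor eIF4G that lacks the site for the cap-binding protein, and the series asked which mRNAs of activated fibroblasts need it for translation.

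All 4 groups were serum-starved (6 h or more) before 24 h with TGFb, so no response to TGFb can be measured. The medium for growth held 10% fetal bovine serum, non-essential amino acids and 5 µg/ml of human insulin. The labels name a single hairpin against eIF4G2 and no rescue, so other effects of that hairpin cannot be told apart from loss of the factor. The design text speaks of more replicates than the 2 per group analysed here. The labels call the libraries biological replicates without saying how cultures were kept apart, and p-values reflect no more than the spread between them. That spread was estimated per gene over all 4 groups together, although the groups differed in it. The chi-square between replicates per degree of freedom was 2.63 in scramble total RNA and 25.9 in EIF4G2 shRNA total RNA. It was 40 in EIF4G2 shRNA polysomes and 127 in scramble polysomes, so an SE is not that of the compared groups alone. How the polysomes were isolated is not given in the sources used here. In bulk RNA, fewer cells that make an mRNA and less of it per cell cannot be told apart.

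IGFBPs are secreted proteins that bind insulin-like growth factors (IGFs), carry them in blood and tissue fluid, and hold them away from the IGF receptor or release them near it. Proteases such as the pappalysin PAPP-A, HTRA1 and plasmin cut them and free the bound IGF, and several also act on cells through other partners. In heart and other tissues, fibroblasts are a known source of IGFBPs. IGFBP1 to IGFBP6 bind IGFs tightly and share a cysteine-rich N-terminal domain and a C-terminal thyroglobulin type-1 domain. IGFBP7 has the N-terminal domain but a different C-terminal part, and binds IGFs weakly.

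The shared N-terminal domain can be read in the coding sequences. The first set of sequences is shown because it marks which of the 6 mRNAs encode the close spacing of cysteines that is typical of that domain. The capitals are the codons that match TGNNNNTGNTGNNNNNNNTGN, read in frame on the coding strand, where the last base of each TGN codon is C or T. The printed stretches lie in IGFBP2 at chr2:216633761-216633805 on the plus strand, in IGFBP3 at chr7:45920910-45920954 on the minus strand, in IGFBP4 at chr17:40443880-40443924 on the plus strand, in IGFBP5 at chr2:216694587-216694631 on the minus strand and in IGFBP7 at chr4:57110151-57110195 on the minus strand (GRCh38, GENCODE release 29 transcripts, all within an exon).
IGFBP2: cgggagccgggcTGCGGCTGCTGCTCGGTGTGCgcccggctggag
IGFBP3: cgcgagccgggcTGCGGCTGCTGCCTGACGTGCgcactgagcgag
IGFBP4: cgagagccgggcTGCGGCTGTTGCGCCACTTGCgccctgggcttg
IGFBP5: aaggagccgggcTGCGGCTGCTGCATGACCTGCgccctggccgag
IGFBP7: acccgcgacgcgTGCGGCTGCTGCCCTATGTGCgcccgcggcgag

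The match lay in 37 of 12644 coding sequences of tested genes (0.293%), 5 of them these members. The other 32 genes included HTRA1, HTRA3, ESM1, CRIM1, KAZALD1 and IGFBPL1, which encode proteins with a related N-terminal domain. Most of the 32 were outside that group, such as CLCN6, KCNK12, P2RX7 and PCDH10, so the match is not particular to the domain. A second pattern, GGNTGNGGNTGNTGN, starts 1 codon upstream, overlaps the first match by 12 bases and lay in 4 coding sequences (0.0316%), those of IGFBP2, IGFBP3, IGFBP4 and IGFBP5. IGFBP6 held neither run of letters. A match is a description of the letters only.

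The second set marks the C-terminal thyroglobulin domain and separates IGFBP7 from the others. The capitals match TGNTGGTGNGTN in frame, with C or T as the last base of each TGN codon, and the run lay in 14 of 12644 coding sequences (0.111%). The 9 genes that are not members included NID1, NID2, SMOC1 and EPCAM. The runs are at chr2:216663961-216663996 (plus strand), chr7:45914889-45914924 (minus), chr17:40456470-40456505 (plus), chr2:216676826-216676861 (minus) and chr12:53102066-53102101 (plus) for IGFBP2, IGFBP3, IGFBP4, IGFBP5 and IGFBP6, and IGFBP7 held none.
IGFBP2: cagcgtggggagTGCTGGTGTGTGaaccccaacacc
IGFBP3: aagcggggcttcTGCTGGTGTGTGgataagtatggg
IGFBP4: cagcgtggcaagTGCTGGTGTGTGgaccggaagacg
IGFBP5: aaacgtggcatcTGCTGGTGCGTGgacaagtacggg
IGFBP6: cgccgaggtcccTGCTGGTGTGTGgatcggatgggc

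The libraries held between 18043714 and 24590030 counts. EIF4G2 mRNA was at 244 and 334.6 CPM (the usual per-library scaling of counts, here with TMM factors) in EIF4G2 shRNA polysomes against 875.3 and 877 CPM in scramble polysomes, and it fell there (log2 fold change -1.60 ± 0.18 SE, edgeR adjusted p = 0.0276). That call was lost when any of 5 libraries was left out, either EIF4G2 shRNA total library, the first EIF4G2 shRNA polysomal library or either scramble polysomal library (edgeR adjusted p from 0.102 to 0.224). In total RNA EIF4G2 was at 293.4 and 327.2 CPM in EIF4G2 shRNA cells against 793.6 and 785.2 CPM in scramble cells (log2 fold change -1.35 ± 0.18, edgeR adjusted p = 0.0504, DESeq2 adjusted p = 4.05e-10). Fibroblast markers (16 of 18 tested) summed to 7870 to 7880 CPM in EIF4G2 shRNA polysomes and 8070 to 8660 CPM in scramble polysomes. In total RNA they summed to 7020 to 7110 CPM in EIF4G2 shRNA cells and 6340 to 6460 CPM in scramble cells. Most of each sum was COL1A1, VIM and TAGLN, and DCN and FAP did not pass the filter. The defining markers PDGFRA and TCF21 were low, at 0.2709 to 2.161 CPM and 0.2548 to 3.251 CPM. Summed markers of endothelium and leukocytes stayed at or below 20.3 and 8.17 CPM. Summed markers of fibroblasts and of 3 other cell types were lower in EIF4G2 shRNA than scramble polysomes without overlap. Of single tested genes, 18.5% were. Cardiomyocyte markers (5 of 12 tested) summed to 5.2 to 11.9 CPM in EIF4G2 shRNA polysomes, 24.3 to 26.1 CPM in scramble polysomes, 4.62 to 7.58 CPM in EIF4G2 shRNA total RNA and 6.84 to 7.55 CPM in scramble total RNA. Most of the sum in scramble polysomes was NPPB (mean 18.7 CPM) and MYL7 (4.99 CPM), while TNNT2, MYH6 and MYH7 were at 0 CPM there. Mural markers (5 of 8 tested) summed to 115 to 189 CPM in EIF4G2 shRNA polysomes, 210 to 267 CPM in scramble polysomes, 398 to 458 CPM in EIF4G2 shRNA total RNA and 476 to 494 CPM in scramble total RNA. Markers of epithelium or an embryonic kidney line (4 of 8 tested) summed to 2240 to 2270 CPM in EIF4G2 shRNA polysomes, 3130 to 3200 CPM in scramble polysomes, 1170 to 1420 CPM in EIF4G2 shRNA total RNA and 1360 to 1390 CPM in scramble total RNA. Nearly all of that last sum was KRT8 and KRT18, keratins of simple epithelia, while EPCAM was at or below 2.377 CPM and CDH1, ESRP1, LIN28B and PAX2 each had 10 or fewer counts over the 8 libraries. Between the hairpins edgeR called none of the markers of any list, where it called at most 0.0123% of all genes in any comparison. DESeq2 called 2 fibroblast, 1 cardiomyocyte and 2 mural markers lower in polysomal RNA, where it called 0.955% of genes lower. The fibroblast ones were COL1A1 (DESeq2 log2 fold change -0.59, adjusted p = 0.0177) and COL6A3 (-1.46, DESeq2 adjusted p = 0.0492). The part of these markers in the results between the hairpins was not tested. Mitochondrial genes took 14.5% and 16.3% of counts in EIF4G2 shRNA polysomes, 7.12% and 17.5% in scramble polysomes and 3.88% to 4.21% in total RNA. The 2 scramble polysomal libraries therefore stand apart from each other, and the part of this in the polysomal results was not tested beyond leaving each library out.

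All 6 mRNAs were well covered. Raw counts over the 8 libraries ran from 277 to 917 for IGFBP2, from 686 to 2700 for IGFBP3, from 9811 to 26558 for IGFBP4, from 508 to 10786 for IGFBP5, from 1228 to 3670 for IGFBP6 and from 6811 to 43270 for IGFBP7. The 6 genes took 0.197% and 0.207% of all counts in EIF4G2 shRNA polysomes, 0.238% and 0.262% in scramble polysomes, 0.209% and 0.21% in EIF4G2 shRNA total RNA and 0.188% and 0.184% in scramble total RNA. Per kilobase of the principal transcript, the order of levels in EIF4G2 shRNA total RNA was IGFBP4 with 351 ± 40.3 CPM per kilobase (SD, n = 2), IGFBP7 with 205 ± 11, IGFBP5 with 50.7 ± 9.24, IGFBP6 with 38.4 ± 5.29, IGFBP3 with 20.8 ± 0.778 and IGFBP2 with 13 ± 1.78, with no overlap between neighbours. In scramble total RNA it was IGFBP4 with 307 ± 1.93 CPM per kilobase (SD, n = 2), IGFBP7 with 183 ± 6.74, IGFBP5 with 41.0 ± 0.592, IGFBP6 with 39.3 ± 1.19, IGFBP2 with 14.5 ± 0.295 and IGFBP3 with 12 ± 0.947. There IGFBP5 and IGFBP6 were separated by about their spread, and IGFBP2 stood above IGFBP3. The places of IGFBP5, IGFBP2 and IGFBP3 depended on the length used. In scramble total RNA IGFBP2 was below IGFBP3 per kilobase of coding sequence (21.3 ± 0.434 and 31 ± 2.45 CPM) and with the shortest transcript (24.6 ± 0.501 and 34.3 ± 2.71 CPM), without overlap. The IGFBP5 transcript is mostly untranslated trailer. Per kilobase of coding sequence IGFBP5 was at 311 ± 4.49 and IGFBP7 at 308 ± 11.3 in scramble total RNA, which overlapped.

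The order was different in polysomes. In EIF4G2 shRNA polysomes IGFBP7 led with 1260 ± 124 CPM per kilobase of transcript, followed by IGFBP4 with 392 ± 18.5, IGFBP6 with 118 ± 48.1, IGFBP3 with 58.5 ± 22, IGFBP2 with 17.0 ± 0.88 and IGFBP5 with 6.35 ± 1.18. Scramble polysomes had the same order, with 1680 ± 175 for IGFBP7, 294 ± 49.6 for IGFBP4, 174 ± 5.81 for IGFBP6, 59.5 ± 16.1 for IGFBP3, 31.1 ± 9.54 for IGFBP2 and 6.05 ± 1.15 for IGFBP5. No pair of neighbours overlapped in either group of polysomal libraries. IGFBP5, above IGFBP2 and IGFBP3 in total RNA, was last of the 6 in polysomes per kilobase of transcript. Per kilobase of coding sequence it was at 48.2 ± 8.96 CPM and IGFBP2 at 25 ± 1.29 CPM in EIF4G2 shRNA polysomes, and in scramble polysomes IGFBP5 (45.9 ± 8.71) and IGFBP2 (45.8 ± 14) overlapped.

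**Figure D1:**
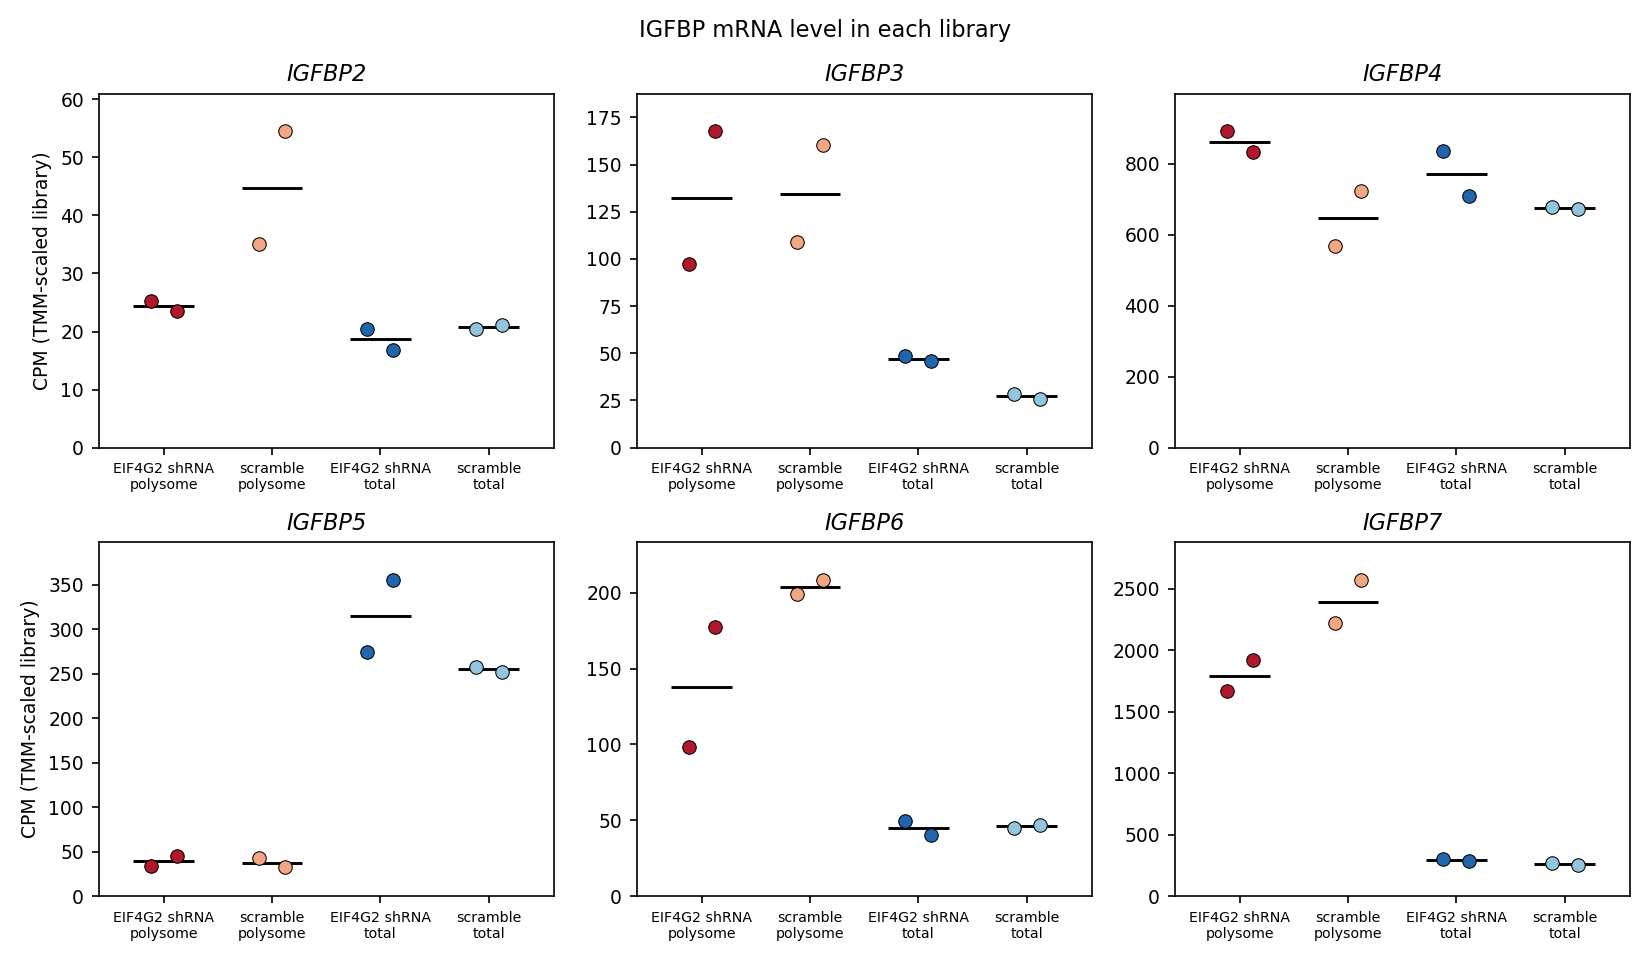
The level of each IGFBP mRNA is plotted in CPM of the TMM-scaled library, on an axis from 0, for the 2 libraries of each of the 4 groups (points) with the group mean (bar). IGFBP7 reached 1668 to 2571 CPM in polysomes against 254.5 to 303.5 CPM in total RNA, and IGFBP5 was at 32.56 to 44.68 CPM in polysomes against 252.4 to 355.5 CPM in total RNA.

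The first comparison was of polysomal with total RNA, that is, of the share each mRNA takes among polysome-associated and among all mRNAs. IGFBP7, IGFBP3 and IGFBP6 mRNAs were enriched in polysomes and IGFBP5 mRNA was depleted, under TMM factors and library totals alike, except that IGFBP3 in EIF4G2 shRNA cells was not called with library totals. IGFBP4 mRNA was near 0 on the log2 scale with TMM factors and below 0 with library totals. In EIF4G2 shRNA cells 3 of 6 members were called higher, where 28.9% of all tested genes were, and 1 was called lower, where 34.1% were (edgeR, adjusted p under 0.05). In scramble cells 4 of 6 were called higher, against 29.7% of all tested genes, and 1 lower, against 33.7%. Calls in either direction were thus 4 of 6 in EIF4G2 shRNA cells, where 63% of all genes were called, and 5 of 6 in scramble cells, where 63.4% were, so the number of calls is close to that of genes at large. The polysomal libraries were above the total ones without overlap for 4 of 6 members in both kinds of cell, where this held for 36.6% of genes in EIF4G2 shRNA cells and 38.8% in scramble cells. They were below for 1 member in both, against 44.9% of genes in EIF4G2 shRNA cells and 46.1% in scramble cells. The median log2 fold change of the members was 0.94 in EIF4G2 shRNA cells and 1.63 in scramble cells, beside -0.16 in EIF4G2 shRNA cells and -0.17 in scramble cells for all tested genes. The scaling sets the zero of this comparison: with library totals in place of TMM factors the median of all genes moved by -1.06 in EIF4G2 shRNA cells and -1 in scramble cells, and the share of higher genes among those called was 16.1% in place of 45.8% in EIF4G2 shRNA cells and 19.4% in place of 46.9% in scramble cells. The place of a gene among all genes is therefore given beside its fold change.

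IGFBP7, the weak IGF binder that is also a matrix protein of vessels and a secreted product of senescent cells, had the largest enrichment of the 6. It was at 1668 and 1919 CPM in polysomal RNA against 303.5 and 281.3 CPM in total RNA of EIF4G2 shRNA cells, and at 2218 and 2571 CPM in polysomal RNA against 268.1 and 254.5 CPM in total RNA of scramble cells. Every polysomal library was far above every total library. The enrichment was 6.14-fold in EIF4G2 shRNA cells (log2 fold change 2.62 ± 0.19 SE, edgeR adjusted p = 1.26e-06) and 9.16-fold in scramble cells (3.20 ± 0.19, edgeR adjusted p = 6.83e-07). It stood above 95.7% of all tested genes in EIF4G2 shRNA cells and 97.5% in scramble cells. IGFBP7 lies on chromosome 4 (57030773 to 57110385, minus strand) and its exons overlap those of POLR2B, on the other strand, by 270 bp. POLR2B had 340 to 5040 counts and the antisense gene IGFBP7-AS1 had 2 to 32. The strand setting of the counting is not given in the sources used here, so exchange of reads between these genes cannot be told apart from their own.

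IGFBP3, the main IGF carrier of blood and a gene long known as a TGF-beta target, was at 97.17 and 167.6 CPM in polysomal RNA against 48.34 and 45.85 CPM in total RNA of EIF4G2 shRNA cells. In scramble cells it was at 108.9 and 160.4 CPM in polysomal RNA against 28.66 and 25.63 CPM in total RNA. The polysomal libraries were above the total libraries in both kinds of cell, and they varied more than the total ones. IGFBP3 had a log2 fold change of 1.49 ± 0.25 (2.81-fold, edgeR adjusted p = 0.000389) in EIF4G2 shRNA cells and 2.31 ± 0.26 (4.96-fold, edgeR adjusted p = 1.88e-05) in scramble cells, above 84.2% of genes in EIF4G2 shRNA cells and 92.6% in scramble cells. Scaled by library totals the value in EIF4G2 shRNA cells was 0.42 and lost its call (edgeR adjusted p = 0.126), and without the second EIF4G2 shRNA polysomal library it was 0.92.

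IGFBP6, which prefers IGF2 over IGF1, was at 98.18 and 177.7 CPM in polysomal RNA against 49.22 and 40.48 CPM in total RNA of EIF4G2 shRNA cells. In scramble cells it was at 198.9 and 208.5 CPM in polysomal RNA against 44.92 and 46.89 CPM in total RNA. There was no overlap between polysomal and total libraries in either. Its log2 fold change was 1.62 ± 0.24 (3.07-fold, edgeR adjusted p = 0.000142) in EIF4G2 shRNA cells and 2.15 ± 0.24 (4.44-fold, edgeR adjusted p = 1.9e-05) in scramble cells, above 86.2% of genes in EIF4G2 shRNA cells and 91.1% in scramble cells. Without the second EIF4G2 shRNA polysomal library the value in EIF4G2 shRNA cells was 1.

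IGFBP2, which carries an RGD site for integrins and has the fewest counts of the 6 in total RNA, was at 25.32 and 23.53 CPM in polysomal RNA against 20.51 and 16.88 CPM in total RNA of EIF4G2 shRNA cells. In scramble cells it was at 35.06 and 54.48 CPM in polysomal RNA against 20.51 and 21.11 CPM in total RNA. The polysomal libraries were above the total ones in both, narrowly so in EIF4G2 shRNA cells. IGFBP2 was called higher in polysomes of scramble cells (1.10 ± 0.22, 2.15-fold, edgeR adjusted p = 0.00103) but not with library totals (0.09), and the value was 0.69 without the second scramble polysomal library. In EIF4G2 shRNA cells it did not pass (0.39 ± 0.22, edgeR adjusted p = 0.145), and with library totals it was -0.67 (edgeR adjusted p = 0.0169). IGFBP2 stood above 62.2% of genes in EIF4G2 shRNA cells and 76.1% in scramble cells.

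IGFBP4, mostly an inhibitor of IGF action until PAPP-A cuts it, had nearly the same level in both kinds of RNA. It was at 890.8 and 833.3 CPM in polysomal RNA against 834.3 and 708.8 CPM in total RNA of EIF4G2 shRNA cells, and at 569.3 and 723.7 CPM in polysomal RNA against 678.5 and 672.5 CPM in total RNA of scramble cells. The libraries overlapped in both. The log2 fold change was 0.16 ± 0.18 in EIF4G2 shRNA cells (edgeR adjusted p = 0.451, above 57.2% of genes, and -0.89 with library totals). In scramble cells it was -0.06 ± 0.18 (edgeR adjusted p = 0.772, above 52.1% of genes, and -1.07 with library totals).

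IGFBP5, which binds extracellular matrix and is linked to fibrosis, was the only member depleted from polysomes in the fit with TMM factors. It was at 34.3 and 44.68 CPM in polysomal RNA against 274.3 and 355.5 CPM in total RNA of EIF4G2 shRNA cells. In scramble cells it was at 42.65 and 32.56 CPM in polysomal RNA against 257.6 and 252.4 CPM in total RNA. Every total library exceeded every polysomal library several-fold. The log2 fold change was -3 ± 0.21 (0.125-fold, edgeR adjusted p = 1.16e-06) in EIF4G2 shRNA cells and -2.76 ± 0.20 (0.148-fold, edgeR adjusted p = 1.57e-06) in scramble cells, lower with library totals as well. About 10.7% of all tested genes had a lower value in EIF4G2 shRNA cells and 9.86% in scramble cells.

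The genes IGFBP2 and IGFBP5 are neighbours on chromosome 2, on opposite strands and 7668 bp apart, yet their mRNAs differed in this respect. Their transcripts also differ in length. The principal IGFBP5 transcript is 6215 nt long, longer than 84.9% of tested protein-coding transcripts, and holds an 819 nt coding sequence, a 750 nt leader and a 4646 nt trailer. IGFBP6 is the shortest at 1169 nt, followed by IGFBP7 at 1427 nt, IGFBP2 at 1439 nt, IGFBP4 at 2200 nt and IGFBP3 at 2262 nt. The coding sequences are alike, from 723 nt in IGFBP6 to 978 nt in IGFBP2, so the members differ in length mainly by their trailers, which run from 173 nt in IGFBP6 to the 4646 nt of IGFBP5. The longest transcript was the depleted one, but the order by length was not the order by enrichment. IGFBP3, second in length, had a log2 fold change of 2.31 ± 0.26 in scramble cells, close to IGFBP6 (2.15 ± 0.24) and above IGFBP2 (1.10 ± 0.22). IGFBP4, of nearly the length of IGFBP3, was at -0.06 ± 0.18 there. In EIF4G2 shRNA cells IGFBP3 (1.49 ± 0.25) was below IGFBP6 (1.62 ± 0.24) and above IGFBP2 (0.39 ± 0.22) and IGFBP4 (0.16 ± 0.18). Leaders run from 34 nt in IGFBP7 to 750 nt in IGFBP5, where the median of 12644 genes was 203 nt. An ATG upstream of the start lies in the leaders of IGFBP3, IGFBP4 and IGFBP6, 1 each, and none in the other 3, as in 46.6% of genes.

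Across 12644 protein-coding genes, the Spearman correlation of transcript length with the log2 fold change of polysomal over total RNA was -0.556 in EIF4G2 shRNA cells and -0.604 in scramble cells, given as a description across genes, which share libraries and are not independent. Genes of 207 to 1867 nt, the length class of IGFBP2, IGFBP6 and IGFBP7, had a median log2 fold change of 1.30 in EIF4G2 shRNA cells and 1.47 in scramble cells. IGFBP7 lay above these medians in both kinds of cell (2.62 in EIF4G2 shRNA and 3.20 in scramble cells), IGFBP6 was above and closer to them (1.62 and 2.15 in the same cells) and IGFBP2 was below (0.39 and 1.10). In the class of 1868 to 2699 nt the median was 0.38 in EIF4G2 shRNA cells and 0.45 in scramble cells, with IGFBP3 above and IGFBP4 below in both. In the class of 5543 nt and over it was -1.48 in EIF4G2 shRNA cells and -1.52 in scramble cells, and IGFBP5 lay further below 0 in both. The part of length in the members' values was not tested.

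**Figure D2:**
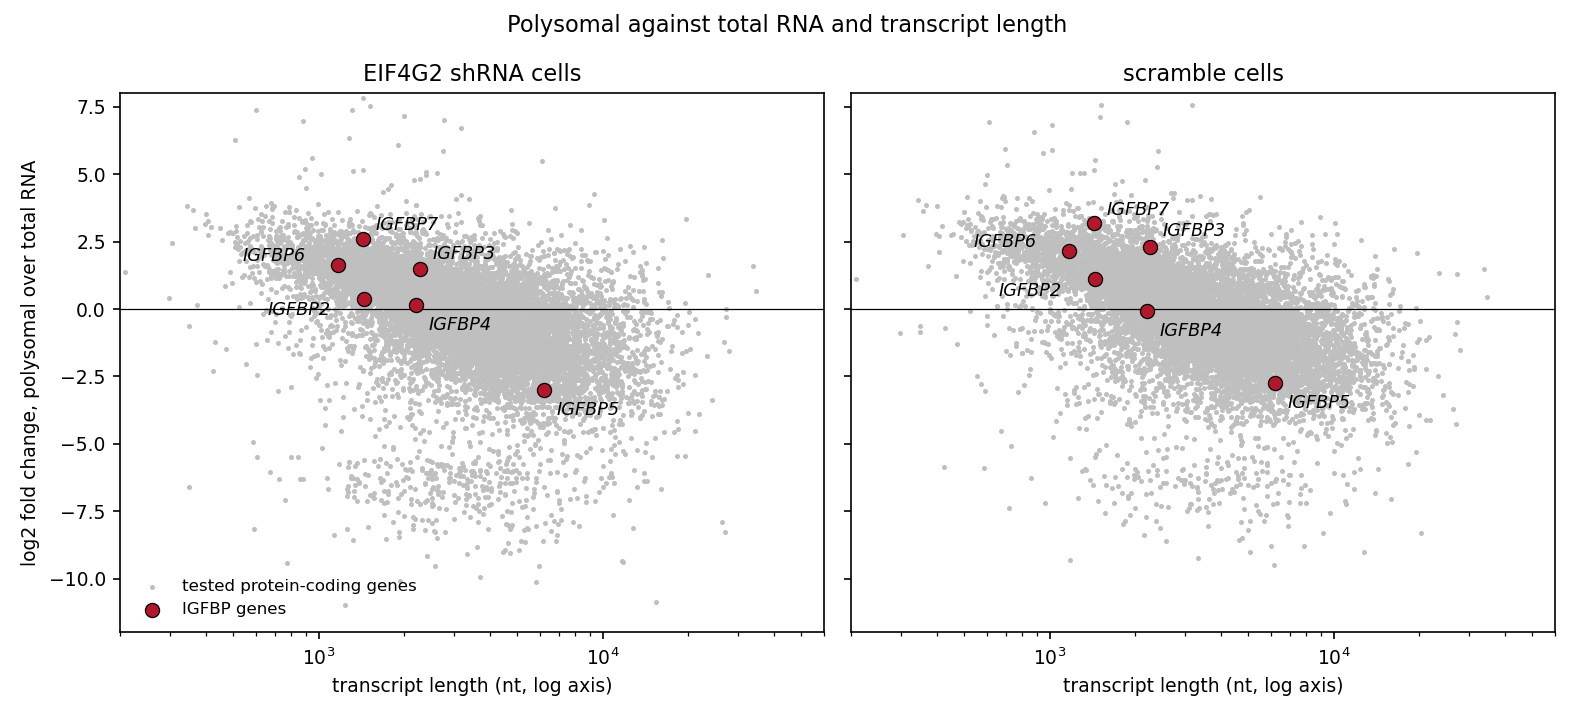
Each point is a tested protein-coding gene, with the length of its principal transcript in nt on a log axis and its log2 fold change of polysomal over total RNA on the vertical axis, for EIF4G2 shRNA cells (left) and scramble cells (right). IGFBP7 (1427 nt) stands at 2.62 on the left and 3.20 on the right and IGFBP5 (6215 nt) at -3 on the left and -2.76 on the right, and 4 genes of the left panel and 6 of the right lie outside the axes.

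Shares within the family need no scaling between libraries. IGFBP7 made up 59.3% and 60.6% of the 6 genes' counts in EIF4G2 shRNA polysomes, 69.9% and 68.5% in scramble polysomes, 19.8% and 19.4% in EIF4G2 shRNA total RNA and 20.7% and 20% in scramble total RNA. IGFBP4 made up 31.7% and 26.3% in EIF4G2 shRNA polysomes, 17.9% and 19.3% in scramble polysomes, 54.5% and 48.9% in EIF4G2 shRNA total RNA and 52.3% and 52.8% in scramble total RNA. IGFBP7 was thus the leading member on polysomes and IGFBP4 in total RNA, in every library. The share of IGFBP5 was 1.22% and 1.41% in EIF4G2 shRNA polysomes, 1.34% and 0.868% in scramble polysomes, 17.9% and 24.5% in EIF4G2 shRNA total RNA and 19.8% and 19.8% in scramble total RNA. Wilson 95% intervals were narrow, for example 59.3% (58.8 to 59.8) for IGFBP7 in the first EIF4G2 shRNA polysomal library. They cover counting error only.

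**Figure D3:**
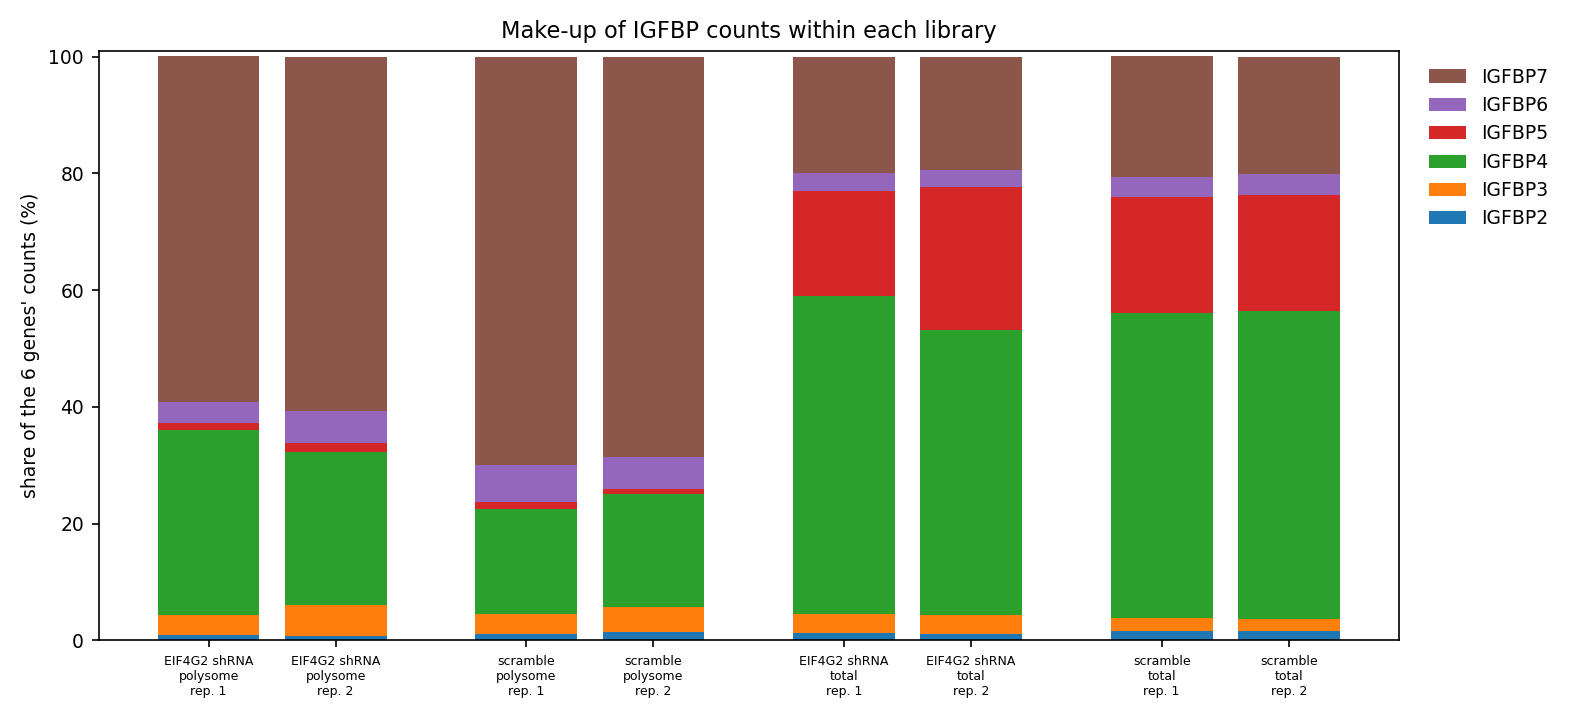
Stacked bars show the share of the 6 genes' counts in percent that each member took in each of the 8 libraries. IGFBP7 takes 59.3% to 69.9% of them in polysomal libraries and 19.4% to 20.7% in total libraries, and IGFBP4 takes 17.9% to 31.7% in polysomal and 48.9% to 54.5% in total libraries.

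The second comparison was of EIF4G2 shRNA with scramble cells in total RNA, the effect of the hairpin on the amount of each mRNA. No member was called (0 of 6, edgeR adjusted p under 0.05), and neither was any other gene (0% of 16228). With DESeq2, 0 of 6 members and 0.239% of genes were called. At an unadjusted edgeR p under 0.05 there were 598 genes (3.68%), 1 of them IGFBP3. IGFBP3 was at 48.34 and 45.85 CPM in EIF4G2 shRNA cells against 28.66 and 25.63 CPM in scramble cells, with no overlap. Its log2 fold change was 0.79 ± 0.25 (1.73-fold, unadjusted p = 0.0092, edgeR adjusted p = 1, DESeq2 adjusted p = 0.385), above 96.5% of all genes.

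The other 5 members lay closer to 0 in total RNA. IGFBP5 had 274.3 and 355.5 CPM in EIF4G2 shRNA cells against 257.6 and 252.4 CPM in scramble cells (0.30 ± 0.19), and IGFBP4 had 834.3 and 708.8 CPM in EIF4G2 shRNA cells against 678.5 and 672.5 CPM in scramble cells (0.19 ± 0.18). IGFBP7 had 303.5 and 281.3 CPM in EIF4G2 shRNA cells against 268.1 and 254.5 CPM in scramble cells (0.16 ± 0.18). In these 3 mRNAs and IGFBP3 the EIF4G2 shRNA libraries were higher without overlap, which was so for 24.8% of all genes. IGFBP6 (-0.03 ± 0.23) and IGFBP2 (-0.15 ± 0.22) overlapped. The edgeR adjusted p was 1 for all 5.

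The third comparison was of EIF4G2 shRNA with scramble cells in polysomal RNA. None of the 6 members was called by edgeR, where 0.0123% of genes (2 of 16228) were. Those were EIF4G2 and STC1. At an unadjusted edgeR p under 0.05 there were 2152 genes (13.3%), among them 4 members: IGFBP2, IGFBP4, IGFBP6 and IGFBP7. DESeq2 called 1.63% of the genes for which it gave an adjusted p, and 0.955% of them lower, IGFBP2 among these. The median log2 fold change of the 6 was -0.22, beside -0.01 for all tested genes.

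IGFBP2 had the lowest fold change of the 6 in polysomes. It was at 25.32 and 23.53 CPM in EIF4G2 shRNA polysomes against 35.06 and 54.48 CPM in scramble polysomes, with no overlap, so that its mean was 54.6% of that in scramble polysomes. The log2 fold change was -0.87 ± 0.22 (unadjusted p = 0.00221, edgeR adjusted p = 0.181), and -0.86 ± 0.24 by DESeq2 (adjusted p = 0.0306). Leaving out 1 library at a time moved it between -1.18 and -0.59.

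IGFBP6 and IGFBP7 also had lower values in EIF4G2 shRNA polysomes but did not pass the test. IGFBP6 was at 98.18 and 177.7 CPM in EIF4G2 shRNA polysomes against 198.9 and 208.5 CPM in scramble polysomes (-0.56 ± 0.23, edgeR adjusted p = 0.336). The EIF4G2 shRNA libraries of IGFBP6 differed among themselves, and without the second of them the value was -1.11 (edgeR adjusted p = 0.0385), without the first -0.23. IGFBP7 was at 1668 and 1919 CPM in EIF4G2 shRNA polysomes against 2218 and 2571 CPM in scramble polysomes (-0.42 ± 0.18, edgeR adjusted p = 0.346). Neither mRNA overlapped between the groups, nor did IGFBP2, where 18.5% of all genes were lower without overlap.

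IGFBP4 was on the other side, at 890.8 and 833.3 CPM in EIF4G2 shRNA polysomes against 569.3 and 723.7 CPM in scramble polysomes (0.42 ± 0.18, edgeR adjusted p = 0.354). It did not overlap either, where 15.5% of all genes were higher without overlap. IGFBP3 and IGFBP5 overlapped between the groups. IGFBP3 was at 97.17 and 167.6 CPM in EIF4G2 shRNA polysomes against 108.9 and 160.4 CPM in scramble polysomes (-0.03 ± 0.25, edgeR adjusted p = 1). IGFBP5 was at 34.3 and 44.68 CPM in EIF4G2 shRNA polysomes against 42.65 and 32.56 CPM in scramble polysomes (0.07 ± 0.20, edgeR adjusted p = 0.938, and -0.04 with library totals).

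The fourth comparison asked whether the polysomal share of an mRNA differed apart from its amount, as the change of the polysome to total ratio between EIF4G2 shRNA and scramble cells. EdgeR called 0 of 6 members and 0% of all genes, and DESeq2 called none of the 6 and 0.0246% of genes. At an unadjusted edgeR p under 0.05 there were 1018 genes (6.27%), with 3 members among them. The ratio of IGFBP3 had a log2 change of -0.82 ± 0.35 (unadjusted p = 0.0399, edgeR adjusted p = 0.776). IGFBP2 had -0.72 ± 0.31 (unadjusted p = 0.0392) and IGFBP7 -0.58 ± 0.25 (unadjusted p = 0.0399), both with an edgeR adjusted p of 0.776. IGFBP6 (-0.53 ± 0.33), IGFBP5 (-0.24 ± 0.27) and IGFBP4 (0.22 ± 0.25) were within 2 SE of 0. The members' median was -0.55, beside -0.07 for all genes, and 5 of 6 were below 0, as were 55.9% of all genes.

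**Figure D4:**
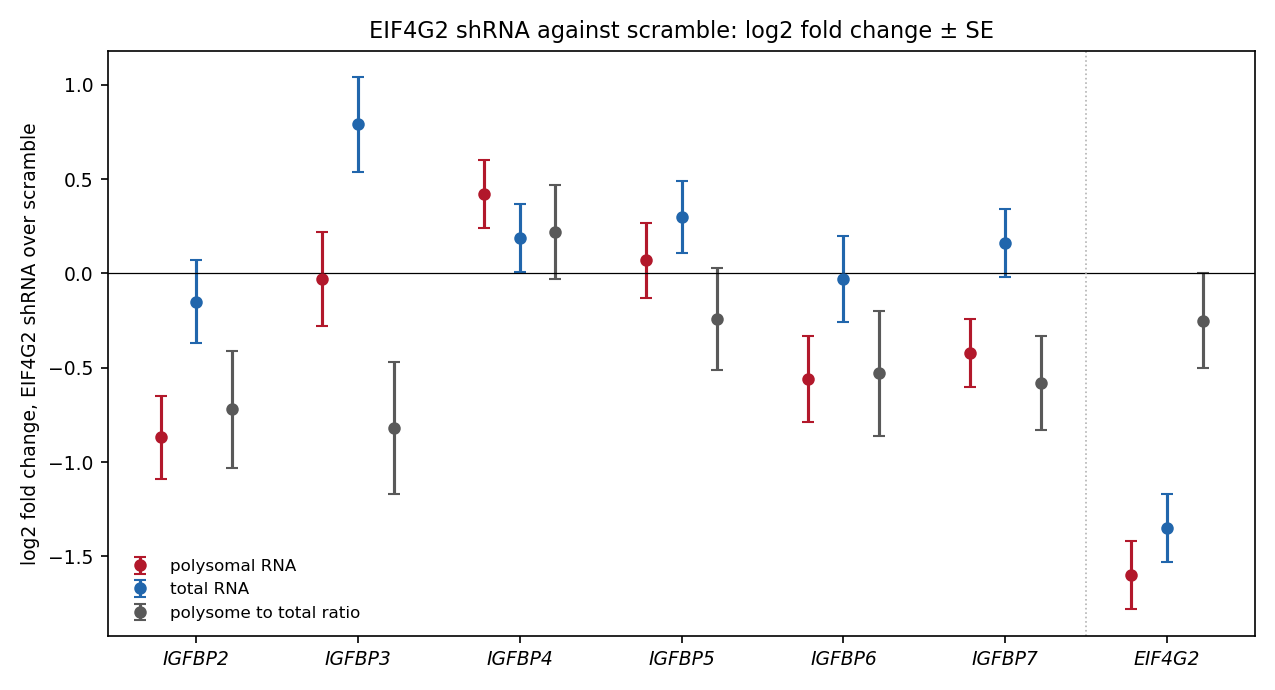
Points show the log2 fold change of EIF4G2 shRNA over scramble cells for each IGFBP mRNA and for EIF4G2, in polysomal RNA (red), in total RNA (blue) and as the change of the polysome to total ratio (grey), with bars of 1 SE from the edgeR fit. EIF4G2 stands at -1.60 in polysomal and -1.35 in total RNA, and the IGFBP values run from -0.87 (IGFBP2, polysomal) to 0.79 (IGFBP3, total).

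Ratios of 2 members within a library need no scaling, and 3 pairs are given as a description. IGFBP7 over IGFBP4 counts was 1.87 and 2.30 in EIF4G2 shRNA polysomes against 3.90 and 3.55 in scramble polysomes, and 0.364 and 0.397 in EIF4G2 shRNA total RNA against 0.395 and 0.378 in scramble total RNA. The polysomal ratios did not overlap between the hairpins, and the total ratios did. IGFBP3 over IGFBP6 was 0.99 and 0.943 in EIF4G2 shRNA polysomes against 0.548 and 0.769 in scramble polysomes, and 0.982 and 1.13 in EIF4G2 shRNA total RNA against 0.638 and 0.547 in scramble total RNA, so these ratios did not overlap between the hairpins in either kind of RNA. IGFBP3 over IGFBP4 was 0.109 and 0.201 in EIF4G2 shRNA polysomes against 0.191 and 0.222 in scramble polysomes, which overlapped, and 0.0579 and 0.0647 in EIF4G2 shRNA total RNA against 0.0422 and 0.0381 in scramble total RNA, which did not. With 2 libraries against 2, an exact two-sided permutation test cannot give a p below 0.333, so these ratios were not tested. The pairs were picked after their values were seen.

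The rest of the IGF system was read from lists of its ligands, receptors, proteases, adaptors and partners. The ligands were nearly absent: IGF1 had 0 to 6 counts per library, IGF2 0 to 1 and INS 0, where 3 counts correspond to 0.0942 to 0.255 CPM. IGFBP1 had 0 to 12 counts and IGFALS, the third partner of the IGF and IGFBP3 complex in blood, 0 to 7. IGFBPL1 was the only other binding component tested, with 2.95 ± 2.13 CPM in EIF4G2 shRNA polysomes and 3.43 ± 0.864 CPM in scramble polysomes (SD, n = 2 each).

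The receptors IGF1R, IGF2R and INSR were all present, and all 3 were depleted from polysomes in both kinds of cell, also with library totals. Of all tested genes, 34.1% were called lower in EIF4G2 shRNA cells and 33.7% in scramble cells, and with library totals 56.8% in EIF4G2 shRNA cells and 54.6% in scramble cells. The log2 fold change of polysomal over total RNA was -5.31 in EIF4G2 shRNA cells and -4.48 in scramble cells for IGF2R, the receptor that clears IGF2. For IGF1R, the signalling receptor, it was -2.01 in EIF4G2 shRNA cells and -1.63 in scramble cells, and for INSR -1.14 in EIF4G2 shRNA cells and -0.71 in scramble cells. Between the hairpins edgeR called none of the 3 receptors, where it called at most 0.0123% of all genes in any comparison. IGF2R had 3.106 and 4.332 CPM in EIF4G2 shRNA polysomes against 10.08 and 7.843 CPM in scramble polysomes, with no overlap (log2 fold change -1.28, edgeR adjusted p = 0.161, DESeq2 adjusted p = 0.00402). In total RNA IGF2R was also lower without overlap, with means of 146 CPM in EIF4G2 shRNA and 201 CPM in scramble cells (log2 fold change -0.46).

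Of 15 listed proteases that cut IGFBPs or, as PLAT and PLAU, activate plasminogen, 11 were tested. EdgeR called none between the hairpins in total RNA, polysomal RNA or their ratio, where it called 0%, 0.0123% and 0% of all genes. DESeq2 called 2 in polysomal RNA, 1 lower and 1 higher, where it called 0.955% of genes lower and 0.67% higher. PLAT, the tissue plasminogen activator, had 37.0 ± 0.039 CPM in EIF4G2 shRNA polysomes and 73.9 ± 15.8 CPM in scramble polysomes (DESeq2 adjusted p = 0.00011, edgeR adjusted p = 0.157). MMP1, the interstitial collagenase, had 659 ± 33.9 CPM in EIF4G2 shRNA polysomes and 446 ± 30.2 CPM in scramble polysomes (DESeq2 adjusted p = 0.00675, edgeR adjusted p = 0.195). PRSS23, PLAU, HTRA1, MMP2, CTSD, ADAM9 and ADAM12 had group means from 9.03 to 681 CPM, and PAPPA, which cuts IGFBP4, was at or below 0.863 CPM in every group mean.

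STC1, stanniocalcin 1, inhibits PAPP-A and was the only gene besides EIF4G2 that edgeR called between the hairpins in polysomal RNA, where DESeq2 called 228. It was at 10.74 and 10.96 CPM in EIF4G2 shRNA polysomes against 3.035 and 2.317 CPM in scramble polysomes, with 159 and 129 counts against 56 and 39, and it rose there (log2 fold change 2.01 ± 0.23 SE, edgeR adjusted p = 0.0276, DESeq2 adjusted p = 1.02e-08). The call was lost when any of 5 libraries was left out, either EIF4G2 shRNA total library, the first EIF4G2 shRNA polysomal library or either scramble polysomal library (edgeR adjusted p from 0.0958 to 0.224, log2 fold change from 1.77 to 2.20). It was also lost with library totals (edgeR adjusted p = 0.0762) and in a fit of the 4 polysomal libraries alone (0.163). In total RNA STC1 was at 24.88 and 29.47 CPM in EIF4G2 shRNA cells against 18.24 and 17.71 CPM in scramble cells (0.60, edgeR adjusted p = 1). STC2, a related inhibitor, was at 419 ± 98.4 CPM in EIF4G2 shRNA polysomes and 499 ± 159 CPM in scramble polysomes.

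Among 31 adaptors and kinases downstream of the receptors, 29 were tested. In any comparison between the hairpins edgeR called at most 0.0123% of all genes, and none of these 29. DESeq2 called 2 of them higher in EIF4G2 shRNA polysomes, as it did 0.67% of all genes. AKT1 had 169 ± 20.5 CPM in EIF4G2 shRNA polysomes and 119 ± 6.97 CPM in scramble polysomes (DESeq2 adjusted p = 0.0398), and SH2B2 had 12.9 ± 6.9 CPM in EIF4G2 shRNA polysomes and 4.6 ± 0.623 CPM in scramble polysomes (DESeq2 adjusted p = 0.0315). Of these 29 mRNAs, 21 were called lower and 6 higher in polysomal than total RNA of EIF4G2 shRNA cells, and 22 lower and 4 higher in scramble cells. Of all tested genes, 34.1% were lower and 28.9% higher in EIF4G2 shRNA cells, and 33.7% lower and 29.7% higher in scramble cells. With library totals 25 of the 29 were lower and 1 higher in EIF4G2 shRNA cells, where 56.8% of all genes were lower and 10.9% higher. In scramble cells 24 were then lower and 1 higher, where 54.6% of all genes were lower and 13.2% higher.

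Of 17 partners through which IGFBPs act apart from IGF, 14 were tested. In any comparison between the hairpins edgeR called at most 0.0123% of all genes, and none of these 14. LRP1, an endocytic receptor that binds IGFBP3, had 12.2 ± 0.0543 CPM in EIF4G2 shRNA polysomes and 24.1 ± 9.73 CPM in scramble polysomes (DESeq2 adjusted p = 0.0398, edgeR adjusted p = 0.195). THBS1, thrombospondin 1, which binds IGFBP5, had 2110 ± 265 CPM in EIF4G2 shRNA total RNA and 1230 ± 55.2 CPM in scramble total RNA (0.78, unadjusted p = 0.00337, edgeR adjusted p = 1).

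For each member, tested genes with a similar pattern over the 8 libraries were found by distance, out of 8906 with a mean log2 CPM of at least 3. Likeness was the root mean square distance between log2 CPM values, each centred on its own mean. The closest were RCN3, GUSB and APOE to IGFBP2 (0.166 to 0.175, where the median of all genes was 0.692), and IFRD1, TPGS1 and SENCR to IGFBP3 (0.139 to 0.203, median 0.987). They were POLE3, TRMT2A and PAK1 to IGFBP4 (0.0564 to 0.0695, median 0.603), and ARHGEF18, IRS1 and TOM1L2 to IGFBP5 (0.119 to 0.155, median 1.5). PQBP1, MED11 and EDF1 were closest to IGFBP6 (0.137 to 0.161, median 0.975), and S100A10 and GADD45B were near IGFBP7 (0.155 and 0.162, median 1.44). Among the members themselves, IGFBP3 and IGFBP6 were the closest pair (0.386) and IGFBP5 and IGFBP7 the farthest (2.90). Since polysomal and total libraries differ most, these distances mainly read the 2 fractions.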

How the data were processed

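Total and polysome-associated RNA of IHCF cells were each sequenced as 2 libraries per hairpin. Groups and replicate numbers come from the sample labels. The authors deposited raw gene counts, whole numbers with no scaling, for 59385 symbols. The design text names DNase treatment, enrichment of polyadenylated RNA and paired-end reads. Among the tools in the submitters' processing notes are HISAT2 2.1.0 and featureCounts of Subread 2.0.1, with DESeq2 and the GRCh38 build. Which annotation and strand setting were used, and how reads with several matches were treated, is not given in the sources used here. Overlapping genes are therefore counted with uncertainty.

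The filter filterByExpr over the 4 groups kept 16228 genes, and libraries were scaled by total and TMM factor (0.6528 to 1.453). All 8 libraries entered 1 quasi-likelihood fit in edgeR 4.0.16 (R 4.3.3) with a mean per group, 4 residual degrees of freedom and robust dispersions. Adjustment of p-values was that of Benjamini and Hochberg across all tested genes, and the threshold was 0.05. The SE was derived from the F statistic of each log2 fold change. Comparisons within a kind of RNA or a kind of cell share libraries. For log2 CPM the prior count was 2. DESeq2 1.42.0 with its Wald test was the alternative, and an adjusted p it did not give stayed missing. The fit was also run on simulated counts with means and dispersions taken from these data, and that outcome is not reported here. TMM takes most genes as equal between libraries, so levels in polysomes are relative to other genes.

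Transcripts, coding sequences and coordinates come from GENCODE release 29 (GRCh38), with the APPRIS principal transcript per gene. This need not be the annotation the counts were made with. All 6 members, EIF4G2 and the tested members of IGF lists were named. For the lists of adaptors, partners and related proteins, values were limited to the 3 genes with the smallest edgeR p in each knockdown comparison, and to genes said to be chosen after their values were seen. Up to 3 genes nearest in pattern were named per member. Some genes that these rules name are not reported here. The members and lists were chosen with earlier results of these data known. Alternatives were other scalings, no filter, DESeq2, only the 4 libraries of a comparison, no robust estimation, a replicate block, each library left out, and other transcript lengths.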

Additional observations from a re-analysis of the deposited data

How the results depend on the processing

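Between polysomal and total RNA, 5 members in scramble cells and 4 in EIF4G2 shRNA cells were called when any library was left out (range 5 to 5 and 4 to 4). With library totals IGFBP2 lost its call in scramble cells, where IGFBP4 gained one (-1.07). In EIF4G2 shRNA cells the signs of IGFBP2 (-0.67) and IGFBP4 (-0.89) then turned, and both were called lower. IGFBP3 lost its call there, so that 5 members were called in place of 4. IGFBP4 was also at -0.02 there without the filter. EIF4G2 was at -0.85 in scramble cells with library totals, and ran from -0.47 to 0.01 in EIF4G2 shRNA cells with a library left out.

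Between the hairpins in total RNA, 1 member was called without the filter (IGFBP3, edgeR adjusted p = 0.033) and 0 to 0 when libraries were left out. IGFBP6 ran from -0.18 to 0.1 there, above 0 without the second EIF4G2 shRNA total library. In polysomal RNA 1 member was called by DESeq2 (IGFBP2), 2 without the filter (IGFBP2, edgeR adjusted p = 0.00494, and IGFBP6, 0.0466) and 0 to 1 when libraries were left out. With a library left out, IGFBP5 ran there from -0.2 to 0.25, below 0 without the second EIF4G2 shRNA or the second scramble polysomal library, and it was at -0.04 with library totals. IGFBP3 ran from -0.53 to 0.29, above 0 without the first EIF4G2 shRNA or the second scramble polysomal library. The cause was not tested. No member was called in the ratio under any alternative run.

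Over all genes, edgeR called 0 in total RNA, against 26 by DESeq2, 38 without the filter and 10 in the 4 libraries alone. In polysomal RNA it called 2, against 1 with library totals, 228 by DESeq2, 502 without the filter and 0 to 183 when libraries were left out. In the ratio it called 0, against 4 by DESeq2, 64 without the filter and 0 to 2 when libraries were left out. EIF4G2 in polysomal RNA lost its call in 5 of those fits (edgeR adjusted p from 0.102 to 0.224). Deviations of same-numbered libraries correlated between -0.092 and 0.026 from group to group. These values cannot tell whether such libraries came from the same culture, which the labels do not say. With a replicate block the members called were 0, 0, 0, 5 and 4, as without it, and no member's call changed. Over all alternatives, 427 member values kept direction and call, and 9 turned, whatever their call. Of those that kept direction, 6 gained a call and 2 lost one. The ratio cannot be had from 4 libraries alone. With 2 libraries per group, the spread limits what the test can call.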

Other observations

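Other secreted proteins with an N-terminal domain like that of the IGFBPs were measured as a list of 12 genes, 10 of them tested. None was called by edgeR between the hairpins in total RNA, polysomal RNA or their ratio, where 0%, 0.0123% and 0% of all genes were. CCN2, a matricellular protein and TGF-beta target, had 433 ± 21.2 CPM in EIF4G2 shRNA polysomes and 584 ± 39 CPM in scramble polysomes (SD, n = 2 each), a log2 fold change of -0.43 ± 0.14 SE (edgeR adjusted p = 0.262, DESeq2 adjusted p = 0.0565). In total RNA CCN2 had 142 ± 8.16 CPM in EIF4G2 shRNA cells and 138 ± 2.78 CPM in scramble cells. CCN1, its close relative, had 1180 ± 37.4 CPM in EIF4G2 shRNA polysomes and 1410 ± 223 CPM in scramble polysomes (-0.25 ± 0.17, edgeR adjusted p = 0.571). CCN3, an antagonist of CCN2 in some settings, was scarce, with 1.85 ± 0.0322 CPM in EIF4G2 shRNA polysomes and 0.43 ± 0.148 CPM in scramble polysomes (edgeR adjusted p = 0.252).

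Of the same 10 mRNAs, 4 were called higher and 1 lower in polysomal than total RNA in each kind of cell. Of all tested genes, 28.9% were higher and 34.1% lower in EIF4G2 shRNA cells, and 29.7% higher and 33.7% lower in scramble cells. With library totals 2 were higher and 3 lower in EIF4G2 shRNA cells (10.9% and 56.8% of all genes), and 3 higher and 2 lower in scramble cells (13.2% and 54.6% of all genes). The log2 fold change of CCN2 was 1.61 in EIF4G2 shRNA cells and 2.08 in scramble cells, and with library totals 0.55 in EIF4G2 shRNA cells and 1.08 in scramble cells. ESM1, endocan, chosen after its values were seen, had 4.79 in EIF4G2 shRNA cells and 4.8 in scramble cells, and with library totals 3.74 in EIF4G2 shRNA cells and 3.79 in scramble cells. TMEM219, a receptor for IGFBP3, also chosen after its values were seen, had 2.26 in EIF4G2 shRNA cells and 2.46 in scramble cells, and with library totals 1.21 in EIF4G2 shRNA cells and 1.47 in scramble cells.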
